A study of Homo sapiens with 15 samples.

Results

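VCaP-CT-BR, the VCaP subline grown out under bicalutamide, was compared with VCaP-CT, the low-testosterone subline from which it was derived. The comparison holds the 3 libraries titled CT-BR and the 3 titled CT, 6 of the 15 bulk RNA-seq libraries of the series, and covers the 19621 genes with enough counts to be tested. The parental VCaP line grows from a prostate cancer metastasis and carries the TMPRSS2-ERG fusion. All sublines were kept in medium with charcoal-stripped serum. VCaP-T was established over 7 months at 10 nM testosterone, and VCaP-CT came from VCaP-T after 10 months at 0.1 nM testosterone, a dose that the protocol states but that the treatment labels of VCaP-CT and of all sublines derived from it give as 10 nM. VCaP-CT-BR then came from VCaP-CT cultured with bicalutamide until it no longer responded. The bicalutamide dose and the length of that culture are not given in the sources used here, and the treatment label of VCaP-CT-BR also names enzalutamide (ENZ) after that point. VCaP-CT-ER, used here for a second comparison, was grown out from VCaP-CT at 10 µM ENZ, and VCaP-CT-BR-ER and VCaP-T appear only as levels. Each subline is a single derivation with 3 libraries. The study calls these biological replicates, and the labels do not say whether they came from separate cultures. The p-values measure only the spread between these libraries and not that between independent derivations. Whether the antagonist was in the medium at harvest is not stated in the sources used here.

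Bicalutamide is a nonsteroidal antiandrogen, a drug that blocks the action of testosterone and dihydrotestosterone on prostate cells. Androgens drive luminal secretory genes of the prostate, among them the kallikrein KLK3, which encodes prostate-specific antigen. Prostate cancer cells that escape antiandrogens are known to use other steroid receptors, to lose luminal features or to switch on growth and stress pathways.

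The libraries held 33665716 to 36269826 counted fragments in VCaP-CT and 38280506 to 40342112 in VCaP-CT-BR. Log2 expression correlated at 0.991 or above within each subline and at 0.979 or below between the 2 sublines. Mitochondrial genes took 7.18 to 7.6% of the counts in VCaP-CT and 7.55 to 8.27% in VCaP-CT-BR. Epithelial identity was checked with marker lists. The 8 luminal markers were keratins, claudins, CDH1 and EPCAM. Their summed level was 1444 to 1520 CPM (counts scaled to library size) in the VCaP-CT libraries and 1150 to 1218 CPM in VCaP-CT-BR, and 1 rose and 5 fell. All 9 leukocyte markers, 5 of 7 endothelial markers and 5 of 8 fibroblast markers had means under 1 CPM in both sublines, among them PTPRC, CDH5, COL1A2 and PDGFRA. Of 5 basal markers 4, KRT5, KRT15, KRT17 and TP63, also had means under 1 CPM in both. The 5 summed to 2.35 to 2.84 CPM in VCaP-CT and 0.421 to 0.648 CPM in VCaP-CT-BR, and 1 fell. The summed levels of the fibroblast and endothelial lists, which also differed, are given with the collagens below. Of 6 neuroendocrine markers 3 were under 1 CPM in both, none rose and 3 fell, and the 6 summed to 89.9 to 100.3 CPM in VCaP-CT and 71.6 to 74.5 CPM in VCaP-CT-BR.

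The sublines differed in many genes, mostly by little. At an adjusted p under 0.05, 5127 genes (26.1%) rose in VCaP-CT-BR and 5302 (27%) fell. The list counts below are to be read beside these shares. Of these, 579 (2.95%) rose and 1375 (7.01%) fell by at least 2-fold. The larger changes lay among weakly expressed genes: of the 4992 genes under 1 CPM in the higher subline, 254 rose and 555 fell by at least 2-fold, whereas of the 2283 genes at 100 CPM or more these were 34 and 31. Calls of any size were rarer among weak genes, with 366 rises and 703 falls under 1 CPM. Of the 2283 genes at 100 CPM or more 936 rose and 709 fell, larger shares than over all tested genes. Among protein-coding genes 31.1% rose and 31.1% fell, and among long noncoding RNAs 11.7% rose and 20.4% fell. The biological coefficient of variation over the whole fit was 0.0609.

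The direction of small changes moved with the base composition of the transcripts. Among genes with a mean of at least 1 CPM, the fifth with the lowest GC share of exons (26.5 to 41.2%) had a median log2 fold change of 0.35, with 69.9% of genes higher and 5.4% lower. The fifth with the highest share (57.3 to 74.7%) had a median of −0.38, with 4.78% higher and 62% lower. The gradient was not equal between libraries. The median deviation of low-GC minus high-GC genes on the log2 scale was 0.56, 0.21 and 0.33 in VCaP-CT-BR replicates 1, 2 and 3 and −0.29, −0.54 and −0.11 in the VCaP-CT replicates, so that VCaP-CT-BR replicate 1 and VCaP-CT replicate 2 stood furthest apart. A fit with a correction per library for GC share and exon length, added after the gradient was seen and called the GC-corrected fit here, called 4725 genes (24.1%) higher and 5190 (26.5%) lower, with the medians of the 5 groups between −0.04 and 0.03. Whether the gradient is technical was not tested. Counts from the GC-corrected fit are given in brackets beside those of the main fit, rises before falls unless the sentence gives falls first.

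**Figure D1:**
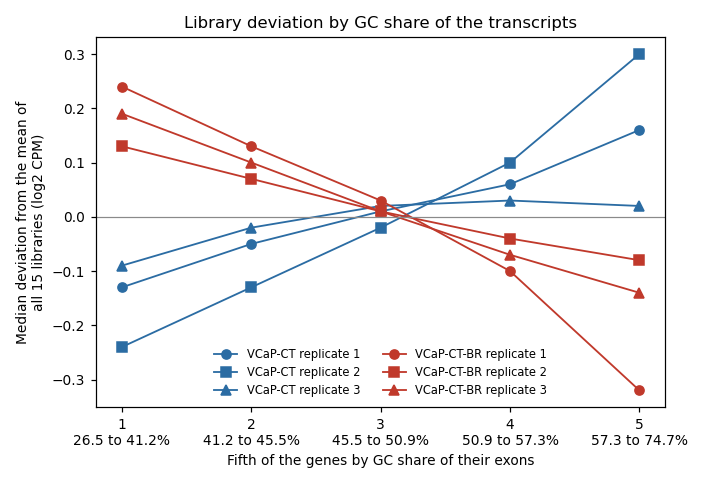
Median deviation of each library from the mean of all 15 libraries (log2 CPM, vertical axis) in 5 equal groups of genes ordered by the GC share of their exons (horizontal axis). Points are the 3 VCaP-CT libraries in blue and the 3 VCaP-CT-BR libraries in red, and the lines cross near the third group, from −0.24 to 0.24 at low GC and from −0.32 to 0.3 at high GC.

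Androgen-induced genes moved in both directions. Among 38 measured, 15 rose and 17 fell (15 and 16 in the GC-corrected fit), with a median log2 fold change of 0.10 against −0.02 over all tested genes, and 0.01 after the correction. Of all tested genes 26.1% rose and 27% fell. KLK3 stood at 32.6, 34.5 and 32.3 CPM in the VCaP-CT libraries and 14.4, 14.4 and 13.5 CPM in the VCaP-CT-BR libraries and fell by 1.23 on the log2 scale (SE 0.05, adjusted p = 2.08e-13). KLK2, a kallikrein that lies beside it on chromosome 19 and was among the 5 genes with the largest loss in CPM, stood at 8059, 8235 and 7590 CPM in the VCaP-CT libraries and 5323, 5187 and 4906 CPM in the VCaP-CT-BR libraries, with a log2 fold change of −0.63 ± 0.05 (SE, adjusted p = 8.8e-10). KLK4, from the same cluster, went the other way, from 228, 237 and 211 CPM in the VCaP-CT libraries to 357, 398 and 388 CPM in the VCaP-CT-BR libraries, with a log2 fold change of 0.76 ± 0.07 (SE, adjusted p = 4.82e-09). The 3 kallikreins therefore did not move together although all 3 are induced by androgen.

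HPGD, which inactivates prostaglandins, rose by 1.58, from 21.4 ± 2.73 CPM to 63.7 ± 4.06 CPM. The small GTPase RHOU rose by 1.45 and the cytokine receptor LIFR by 0.98. TRPM8, a cold-sensing channel of prostate epithelium, stood at 203, 197 and 209.9 CPM in the VCaP-CT libraries and 90.1, 88.2 and 89.1 CPM in the VCaP-CT-BR libraries. It fell by 1.19 on the log2 scale (adjusted p = 4.85e-13). The kinase CAMKK2 fell by 0.78. Over the series KLK3 was at 3560 ± 48.9 CPM in VCaP-T, and TRPM8 was at 0.302 ± 0.0864 CPM in VCaP-CT-ER.

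Factors that bind with steroid receptors in prostate chromatin also moved. HOXB13, a homeobox factor of prostate cells, fell from 709, 759.6 and 659 CPM in the VCaP-CT libraries to 415, 465 and 446 CPM in the VCaP-CT-BR libraries, with a log2 fold change of −0.68 ± 0.06 (SE, adjusted p = 6.05e-09). The coactivators NCOA2 and NCOA3 rose by 0.64 and 0.54 on the log2 scale. The pioneer factor GATA2 fell by 0.35 in the main fit (adjusted p = 0.000382) but differed by 0.04 in the GC-corrected fit (adjusted p = 0.351). FOXA1, a pioneer factor of luminal cells, had means of 679 ± 37.1 CPM and 628 ± 18.5 CPM, and its libraries overlapped between the sublines.

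**Figure D2:**
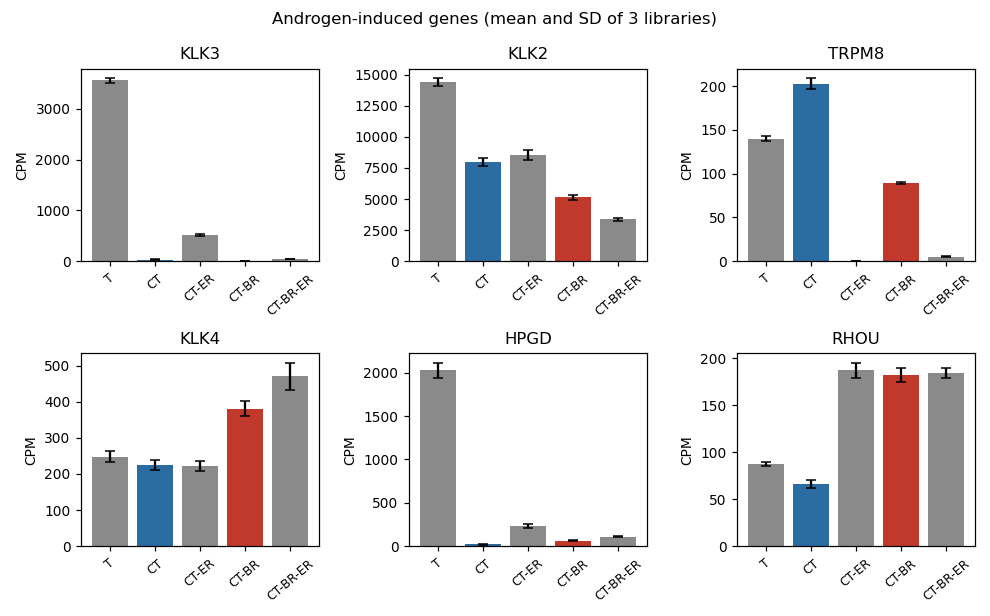
Expression of 6 androgen-induced genes in the 5 sublines (CPM, each panel with its own axis starting at 0). Bars are means and error bars are SDs of 3 libraries, with VCaP-CT in blue and VCaP-CT-BR in red. KLK4, HPGD and RHOU are higher and KLK3, KLK2 and TRPM8 lower in VCaP-CT-BR than in VCaP-CT.

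Genes of the UGT2B family, which includes enzymes that remove androgens by glucuronidation, fell or did not pass the test. Only some members are named here. Of 7 measured UGT2B genes, 4 fell and none rose, as in the GC-corrected fit, with a median log2 fold change of −1.64. UGT2B4 stood at 21.5, 20.4 and 22.5 CPM in the VCaP-CT libraries and 10, 8.45 and 10.3 CPM in the VCaP-CT-BR libraries and fell by 1.16 on the log2 scale (adjusted p = 3.19e-10). UGT2B7 fell by 1.84, from 1.2 ± 0.251 CPM to 0.336 ± 0.142 CPM. UGT2B10 was near the lower limit of measurement in both sublines, at 0.0878 ± 0.0613 CPM and 0.0257 ± 0.0262 CPM. The UGT2B genes are close in sequence, so the division of fragments between them is uncertain. Among 13 measured androgen synthesis and conversion enzymes 4 rose and 4 fell, with a median of 0.2 (4 and 4, with −0.03, in the GC-corrected fit). These counts lay near the shares over all tested genes, 26.1% higher and 27% lower. STS, the steroid sulfatase that frees conjugated steroids, rose by 1.01, from 8.8 ± 0.331 CPM to 17.7 ± 2.13 CPM, and HSD17B4 rose by 0.7. HSD17B6, a hydroxysteroid dehydrogenase, fell by 1.31, from 36 ± 1.91 CPM to 14.5 ± 0.562 CPM, and the 5-alpha-reductase SRD5A1 fell by 0.23 (adjusted p = 0.00624). STS and SRD5A1 have pseudogene copies that may share fragments, and HSD17B6 overlaps PRIM1.

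Nuclear receptors mostly fell, with 5 of 29 measured higher, 16 lower and a median log2 fold change of −0.33 (7 and 16 in the GC-corrected fit). The glucocorticoid receptor NR3C1, which responds to cortisol, stood at 1.84, 2.05 and 2.88 CPM in the VCaP-CT libraries and 4.67, 4.89 and 4.81 CPM in the VCaP-CT-BR libraries. It rose by 1.08 (adjusted p = 1.9e-06) but stayed well under its level in VCaP-T, 46.2 ± 3.52 CPM. The mineralocorticoid receptor NR3C2 fell by 1.15, from 2.1 ± 0.116 CPM to 0.948 ± 0.035 CPM. The estrogen-related receptor ESRRA fell by 1.03 and the vitamin D receptor VDR fell by 1.0. ESRRA overlaps TRMT112 and has pseudogene copies. Progesterone receptor PGR was at 5.5 ± 0.475 CPM and 4.92 ± 0.205 CPM and did not pass the test (adjusted p = 0.262).

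Of 16 measured ETS transcription factors 4 rose and 9 fell, with a median of −0.39 (1 and 8 in the GC-corrected fit). ERG, expressed in VCaP from the androgen-driven TMPRSS2 fusion, stood at 416, 415 and 414 CPM in the VCaP-CT libraries and 254, 245 and 244 CPM in the VCaP-CT-BR libraries and fell by 0.74 on the log2 scale (SE 0.05, adjusted p = 3.17e-11). The luminal factor SPDEF fell by 1.03, from 700.4 ± 110.3 CPM to 344 ± 52.7 CPM. ETV4 fell from 1.77 ± 0.329 CPM to 0.0684 ± 0.0656 CPM, a level of few counts per library in VCaP-CT-BR.

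The steepest rise was that of ID1, one of the ID genes, which encode helix-loop-helix proteins that block differentiation factors and are classical targets of bone morphogenetic protein (BMP) signalling. ID1 (ENSG00000125968, GRCh38 chr20:31605283-31606515) had the largest rise of any gene that met the naming rule, from 2.63, 1.91 and 1.93 CPM in the VCaP-CT libraries to 46.5, 58.1 and 53.1 CPM in the VCaP-CT-BR libraries, with a log2 fold change of 4.61 ± 0.22 (SE, adjusted p = 6.9e-13). ID3 (ENSG00000117318, GRCh38 chr1:23557918-23559794) stood at 8.94, 10.7 and 8.36 CPM in the VCaP-CT libraries and 70.2, 90.9 and 82.7 CPM in the VCaP-CT-BR libraries, with a log2 fold change of 3.12 ± 0.17 (SE, adjusted p = 6.16e-12). All 3 VCaP-CT-BR libraries lay above all 3 VCaP-CT libraries for both, as the naming rule required. ID2 rose by 0.91 and ID4 by 1.94, 2 family members named after their values were seen. The levels of ID1 were 7.31 ± 0.344 CPM in VCaP-T, 112 ± 13.7 CPM in VCaP-CT-ER and 36.2 ± 13.1 CPM in VCaP-CT-BR-ER, so that VCaP-CT had the lowest mean and VCaP-CT-ER the highest. ID1 differed from VCaP-CT-ER by −1.09 on the log2 scale (adjusted p = 3.94e-06).

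In the TGF-beta and BMP pathway as a whole, 14 of 32 measured genes rose and 10 fell, with 7 rises and 1 fall of at least 2-fold and a median log2 fold change of 0.23 (14 and 11 in the GC-corrected fit). Over all tested genes 26.1% rose and 27% fell, 2.95% and 7.01% by at least 2-fold. Among ligands, TGFB2 stood at 3.2, 3.13 and 2.77 CPM in the VCaP-CT libraries and 16.7, 15.7 and 16.7 CPM in the VCaP-CT-BR libraries and rose by 2.43 (SE 0.1, adjusted p = 8.18e-14), whereas the activin subunit INHBB fell by 1.17. TGFB1 and TGFB3 were below 1 CPM in both sublines and did not pass the test. The receptor BMPR1B fell by 0.69 and the signal transducer SMAD3 fell by 0.43. SMAD6, an inhibitory SMAD named after its values were seen, rose by 1.34, from 9.82 ± 0.353 CPM to 24.8 ± 0.676 CPM. The ligand TGFB2 was at 0.965 ± 0.117 CPM in VCaP-CT-ER, against 16.4 ± 0.601 CPM in VCaP-CT-BR, a log2 difference of 4.08 (adjusted p = 3.31e-17). ID1 and TGFB2 thus stood in a different order over these sublines.

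Other large rises were in genes of varied function. IGFBP3, which binds insulin-like growth factors, stood at 11, 9.08 and 10 CPM in the VCaP-CT libraries and 120.1, 117 and 115 CPM in the VCaP-CT-BR libraries and rose by 3.55 on the log2 scale (adjusted p = 6.45e-14). ATOH8, a basic helix-loop-helix factor, rose by 4.39 from a low level, 0.272, 0.513 and 0.447 CPM in the VCaP-CT libraries and 7.26, 9.21 and 9.77 CPM in the VCaP-CT-BR libraries. The hedgehog ligand SHH rose by 3.51, from 0.906, 0.826 and 1.15 CPM in the VCaP-CT libraries to 10.7, 11.1 and 11.1 CPM in the VCaP-CT-BR libraries. ANTXR2, a receptor that binds collagen and laminin and the anthrax toxin, stood at 7.61, 7.21 and 7.55 CPM in the VCaP-CT libraries and 65.2, 59.6 and 61 CPM in the VCaP-CT-BR libraries, with a log2 fold change of 3.05 ± 0.06 (SE, adjusted p = 6.94e-19). PTGFR, the prostaglandin F receptor, rose by 2.46, the splicing regulator MBNL2 by 2.45, and the progestin receptor PAQR5 by 2.47. SDC2 and PI15, a syndecan and a peptidase inhibitor, completed the 12 with log2 rises of 2.77 and 2.25.

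**Figure D3:**
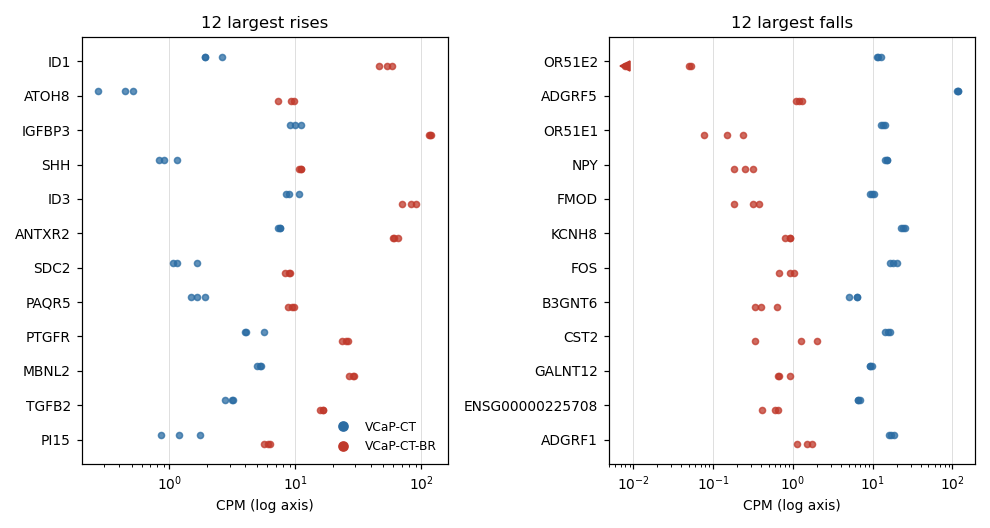
Levels of the 12 genes with the largest rise (left) and the 12 with the largest fall (right) that met the naming rule, in CPM on a log axis. Each point is 1 library, VCaP-CT in blue and VCaP-CT-BR in red, and the triangle at the left edge marks a library of OR51E2 with no count. The libraries of the sublines do not overlap in any of these genes, as the rule required.

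Of 22 measured hedgehog and Notch genes 5 rose and 12 fell, with a median of −0.47 (5 and 6 in the GC-corrected fit). IHH, a second hedgehog ligand, stood at 100.4, 112 and 88.7 CPM in the VCaP-CT libraries and 40.7, 47.5 and 44.3 CPM in the VCaP-CT-BR libraries and fell by 1.18 on the log2 scale (adjusted p = 6.38e-11), while SHH rose. The hedgehog transducer SMO fell by 0.65, its effector GLI3 rose by 0.43, and the receptor NOTCH3 fell by 0.82.

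Genes of mitosis rose nearly throughout. Of 34 measured mitosis and spindle genes 33 rose and none fell, with a median log2 fold change of 0.82 against −0.02 over all tested genes, and in the GC-corrected fit all 34 rose with a median of 0.72. CENPE, a kinetochore motor, stood at 42.1, 36.9 and 39.6 CPM in the VCaP-CT libraries and 165, 132 and 129.5 CPM in the VCaP-CT-BR libraries, with a log2 fold change of 1.85 ± 0.09 (SE, adjusted p = 4.79e-13). CENPF, a kinetochore and nuclear matrix protein, stood at 119, 100.1 and 113 CPM in the VCaP-CT libraries and 328, 279 and 288 CPM in the VCaP-CT-BR libraries, with a log2 fold change of 1.43 ± 0.08 (SE, adjusted p = 1.41e-11). The spindle checkpoint kinase TTK rose by 1.13. The B-type cyclin CCNB1 stood at 165, 148 and 169 CPM in the VCaP-CT libraries and 361, 343 and 328 CPM in the VCaP-CT-BR libraries and rose by 1.1 (SE 0.06, adjusted p = 1.48e-12). Its paralogue CCNB2 rose by 0.57 and the S and G2 cyclin CCNA2 by 1.12. The one member that did not pass the main test was SPC24, at a log2 fold change of 0.1 (adjusted p = 0.143). In bulk RNA, more cells in mitosis and more RNA per such cell cannot be told apart.

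**Figure D4:**
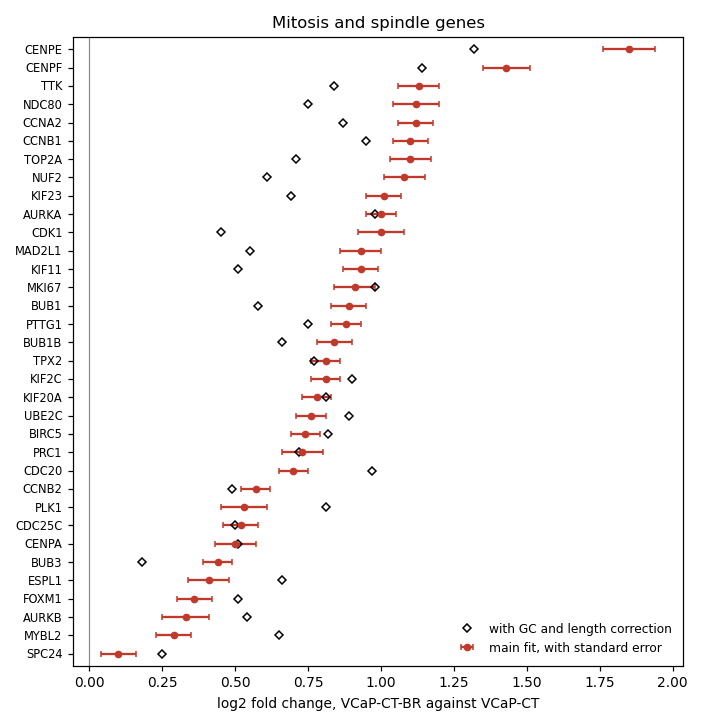
Log2 fold change of the 34 measured mitosis and spindle genes, VCaP-CT-BR against VCaP-CT (horizontal axis), in the main fit with its standard error (red) and in the GC-corrected fit (open diamonds). All values lie above 0, from SPC24 at 0.10 to CENPE at 1.85 in the main fit.

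Many genes that peak in G2 and mitosis carry a CCAAT box, bound by NF-Y, and a cell cycle genes homology region (CHR, TTTGAA), bound by the MuvB complexes. The promoters of 3 members are shown as examples that hold one or both of these motifs, 250 bases before the RefSeq start on GRCh38.p14, 5′ to 3′, with CCAAT and TTTGAA matches on either strand in capitals. CDC20, the mitotic activator of the anaphase-promoting complex, and PLK1, the polo-like kinase, were chosen for these matches and not by their values, and CCNB1 as a B-type cyclin described above. The windows lie at chr1:43358731-43358980, chr16:23678639-23678888 and chr5:69166900-69167149, each on the forward strand.
CDC20: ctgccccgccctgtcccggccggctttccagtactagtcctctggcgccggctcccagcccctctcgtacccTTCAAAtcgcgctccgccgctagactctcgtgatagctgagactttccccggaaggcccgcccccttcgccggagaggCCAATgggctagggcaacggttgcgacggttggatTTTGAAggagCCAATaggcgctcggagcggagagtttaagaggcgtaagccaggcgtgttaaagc
PLK1: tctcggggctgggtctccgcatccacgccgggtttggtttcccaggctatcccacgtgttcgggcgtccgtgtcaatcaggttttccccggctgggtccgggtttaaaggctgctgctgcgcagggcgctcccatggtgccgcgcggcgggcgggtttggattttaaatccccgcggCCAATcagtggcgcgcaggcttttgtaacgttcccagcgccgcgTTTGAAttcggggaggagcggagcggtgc
CCNB1: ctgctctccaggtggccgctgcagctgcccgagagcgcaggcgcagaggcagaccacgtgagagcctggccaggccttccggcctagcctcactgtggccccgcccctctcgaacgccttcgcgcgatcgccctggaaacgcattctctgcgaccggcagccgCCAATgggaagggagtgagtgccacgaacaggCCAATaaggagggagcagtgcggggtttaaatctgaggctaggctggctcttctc
Counted from the start, CDC20 matches TTCAAA at −178, CCAAT at −100, TTTGAA at −65 and CCAAT at −55, PLK1 matches CCAAT at −73 and TTTGAA at −29, and CCNB1 matches CCAAT at −87 and −55. CDC20 rose by 0.7 (0.97 in the GC-corrected fit) and PLK1 by 0.53 (0.81).

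Over the promoters with an entry, now 250 bases before to 50 after the start, CCAAT was found on either strand in 20 of 27 mitosis genes (74.1%), against 36.3% of the 12258 tested genes. It was in 40.2% of the 333 genes that rose and 29.1% of the 832 that fell by at least 2-fold. TTTGAA, a motif added after the values were seen, was found in 16 of 27 mitosis genes (59.3%), 9.7% of all tested genes, 17.7% of those that rose and 8.17% of those that fell. Each motif was counted on its own, and matches of different motifs may overlap. The median GC share of these promoters was 65% over all tested genes and 61.3% in the mitosis genes. It was 62.3% in the genes that rose and 64.7% in those that fell by at least 2-fold. The motif shares were not adjusted for this difference. The E-box CACGTG was in 9.72% of all promoters, 10.8% of those that rose and 5.77% of those that fell. In the same order, the E2F motif TTTCCCGC was in 2.47%, 1.8% and 1.68%, the antioxidant motif TGACNNNGC in 14.9%, 14.1% and 14.1%, and the sterol motif TCACNCCAC in 1.11%, 1.5% and 0.841%. These are shares of letters and not of bound sites.

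The other cell cycle lists rose too. Of the G2/M genes that Seurat uses for scoring, 51 of 54 rose and 1 fell (53 and 1 in the GC-corrected fit), with a median of 0.83, and many are also in the mitosis list. Of its 42 measured S phase genes 34 rose and 1 fell (34 and 1), with a median of 0.36. DNA replication genes rose in 23 of 34 cases and fell in 3 (28 and 2), with a median of 0.32. The polymerase alpha subunit POLA1 rose by 0.68, ORC6 of the origin complex by 0.61 and the ribonucleotide reductase subunit RRM2 by 0.59, with RRM2 pseudogenes present. The primase subunit PRIM1 fell by 0.54, from 39.2, 38.5 and 42.9 CPM in the VCaP-CT libraries to 29, 26.1 and 27.7 CPM in the VCaP-CT-BR libraries. The helicase subunits MCM2 and MCM3 had means of 234 ± 14.5 CPM and 181 ± 5.23 CPM in VCaP-CT and 216 ± 14.5 CPM and 183 ± 4.16 CPM in VCaP-CT-BR and did not pass the test in the main fit, whereas MCM2 rose by 0.16 in the GC-corrected fit (adjusted p = 0.00054). Homologous recombination and Fanconi genes rose in 18 of 29 cases and fell in 4 (16 and 5), with a median of 0.37. Nucleolar ribosome biogenesis genes rose in 15 of 29 cases and fell in 1 (24 and 1), with a median of 0.18.

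Among 24 measured G1 cyclins, kinases, inhibitors and RB1, 14 rose and 4 fell, with a median of 0.28 (17 and 2 in the GC-corrected fit). The CDK4 and CDK6 inhibitor CDKN2C stood at 15.9, 18.2 and 16.5 CPM in the VCaP-CT libraries and 38.8, 40.6 and 40.4 CPM in the VCaP-CT-BR libraries, with a log2 fold change of 1.25 ± 0.06 (SE, adjusted p = 3.53e-13), and its relative CDKN2D rose by 0.71. The E-type cyclin CCNE2 rose by 0.69. CDKN2A, which encodes p16 and ARF, fell by 1.04, from 10.9 ± 1.94 CPM to 5.29 ± 0.277 CPM, and overlaps CDKN2B-AS1. Cyclin D1, CCND1, fell by 0.17 in the main fit and differed by −0.04 in the GC-corrected fit (adjusted p = 0.358).

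The steepest fall was that of OR51E2, the odorant receptor also known as prostate-specific G protein-coupled receptor, with its neighbour OR51E1. OR51E2 (ENSG00000167332, GRCh38 chr11:4680171-4697854) stood at 11.7, 12.7 and 11.3 CPM in the VCaP-CT libraries and 0, 0.0523 and 0.0496 CPM in the VCaP-CT-BR libraries, with a log2 fold change of −8.32 ± 0.27 (SE, adjusted p = 2.25e-15), a level of few counts in VCaP-CT-BR, and overlaps the pseudogene OR51C1P. OR51E1 stood at 12.9, 14.3 and 13.3 CPM in the VCaP-CT libraries and 0.0778, 0.235 and 0.149 CPM in the VCaP-CT-BR libraries and fell by 6.43. OR51E2 was at 0.901 ± 0.0685 CPM in VCaP-T and 0.0747 ± 0.0296 CPM in VCaP-CT-ER, so VCaP-CT alone was above 1 CPM for it. OR51E1 was above 1 CPM in VCaP-CT and VCaP-CT-BR-ER.

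The rule also named 2 adhesion G protein-coupled receptors. ADGRF5 (ENSG00000069122, GRCh38 chr6:46852512-46954943) stood at 115, 117 and 119 CPM in the VCaP-CT libraries and 1.09, 1.2 and 1.31 CPM in the VCaP-CT-BR libraries, with a log2 fold change of −6.6 ± 0.09 (SE, adjusted p = 1.36e-21), and has pseudogene copies. Its neighbour ADGRF1 fell by 3.57, from 17.3 ± 1.21 CPM to 1.46 ± 0.325 CPM, but was at 52.9 ± 2.35 CPM in VCaP-CT-ER. NPY, which encodes neuropeptide Y, stood at 15, 14.1 and 15.3 CPM in the VCaP-CT libraries and 0.181, 0.314 and 0.248 CPM in the VCaP-CT-BR libraries and fell by 5.88 on the log2 scale (adjusted p = 9.91e-17). Its level in VCaP-CT-ER, 14.6 ± 1.2 CPM, was close to that in VCaP-CT. The matrix proteoglycan FMOD fell by 5.06 and the potassium channel KCNH8 fell by 4.76. FOS, an immediate early gene that responds to growth factors and handling, fell by 4.38, from 20.2, 17.9 and 16.5 CPM in the VCaP-CT libraries to 0.674, 1.02 and 0.917 CPM in the VCaP-CT-BR libraries, and was at 155 ± 50.4 CPM in VCaP-CT-ER. The glycosyltransferases B3GNT6 and GALNT12, which build mucin-type glycans, had log2 fold changes of −3.71 and −3.64, and the unnamed gene ENSG00000225708 fell by 3.59.

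Secreted proteins of the luminal epithelium fell as a group. Of 19 measured trefoil, anterior gradient, cystatin and secretory genes 15 fell and none rose, 12 of them by at least 2-fold, with a median log2 fold change of −1.16 (17 and none, with −1.48, in the GC-corrected fit). The salivary-type cystatin CST2 stood at 14.4, 16.4 and 15.4 CPM in the VCaP-CT libraries and 0.337, 1.28 and 2.01 CPM in the VCaP-CT-BR libraries, with a log2 fold change of −3.66 ± 0.32 (SE, adjusted p = 5.52e-09), after a mean of 10365 ± 618 CPM in VCaP-T. TFF3 stood at 23.3, 29.7 and 24.1 CPM in the VCaP-CT libraries and 2.41, 2.46 and 2.65 CPM in the VCaP-CT-BR libraries, with a log2 fold change of −3.36 ± 0.12 (SE, adjusted p = 7.08e-15). CST1 fell by 3.11 and TFF1 fell by 2.56. The cystatin genes are close in sequence, and CST2 has a pseudogene copy. Among luminal keratins, which have many processed copies, KRT8 fell by 0.6 and KRT18 fell by 0.4.

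NF-kappa-B and inflammatory cytokine genes fell in 12 of 16 cases and rose in 1 (10 and 2 in the GC-corrected fit), 9 of them by at least 2-fold, with a median of −1.15. The death ligand TNFSF10 (TRAIL) stood at 43, 38.4 and 42.6 CPM in the VCaP-CT libraries and 13.6, 11.4 and 12.3 CPM in the VCaP-CT-BR libraries, with a log2 fold change of −1.74 ± 0.08 (SE, adjusted p = 3.18e-13). RELB, a subunit of the noncanonical pathway, fell by 1.65 and its precursor partner NFKB2 fell by 0.82. BIRC3, an NF-kappa-B target that inhibits apoptosis, fell by 1.25. NFKBIA, the inhibitor of NF-kappa-B, rose by 0.27. NFKB1 was at 32.4 ± 0.775 CPM and 31.1 ± 1.29 CPM and did not pass the test (adjusted p = 0.426). RELA fell by 0.31 in the main fit and differed by 0.02 in the GC-corrected fit (adjusted p = 0.674).

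Interferon-stimulated genes were called about as often as all tested genes in the main fit, of which 26.1% rose and 27% fell. Of 32 measured 9 were higher and 9 lower, with a median of −0.05 (7 and 12 in the GC-corrected fit). HERC5 rose by 0.99, while OAS1 fell by 1.29 and ISG15 fell by 0.78.

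Collagens, matrix proteins and integrins mostly fell, with 7 of 40 measured higher, 23 lower and a median of −0.74 (8 and 25, with −0.54, in the GC-corrected fit). COL9A2 fell by 1.41, COL6A2 fell by 1.31 and the laminin LAMB2 fell by 1.22, from 43.3, 44.6 and 37.1 CPM in the VCaP-CT libraries to 17, 19.2 and 17.5 CPM in the VCaP-CT-BR libraries. The integrin subunits ITGA1 and ITGAV rose by 1.19 and 0.67, and the basement membrane collagen COL4A5 by 1.01. Of the 8 fibroblast markers 1 rose and 1 fell, and their summed level was 10.1 to 11.3 CPM in VCaP-CT and 24.6 to 25.5 CPM in VCaP-CT-BR, most of it from LUM at 6.24 ± 1.21 CPM and 23.5 ± 0.363 CPM. The summed level of 7 endothelial markers was 8.38 to 9.74 CPM in VCaP-CT and 1.63 to 2.43 CPM in VCaP-CT-BR, with 1 higher and 2 lower, and CDH5, KDR, TEK, CLDN5 and EMCN were under 1 CPM in both.

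Growth factor receptors fell more often than they rose. Of 24 measured receptor tyrosine kinases 3 rose and 15 fell, with a median of −0.33 (4 and 11 in the GC-corrected fit). EGFR stood at 32.5, 34 and 30.9 CPM in the VCaP-CT libraries and 16.9, 15.4 and 17.2 CPM in the VCaP-CT-BR libraries, with a log2 fold change of −0.98 ± 0.07 (SE, adjusted p = 1.2e-10). The ephrin receptor EPHB2 fell by 1.22, FGFR4 fell by 1.21 and ERBB2 fell by 0.62. EPHA4 rose by 1.54, from 7.69 ± 0.577 CPM to 22.3 ± 1.82 CPM, and MET, the receptor of hepatocyte growth factor, by 1. ERBB3 was at 54.9 ± 2.69 CPM and 51 ± 2.28 CPM and did not pass the test. Among 17 measured ligands 1 rose and 8 fell (3 and 6), with a median of −0.21. The stress cytokine GDF15 stood at 23.9, 30.8 and 20.2 CPM in the VCaP-CT libraries and 2.41, 2.67 and 2.78 CPM in the VCaP-CT-BR libraries, with a log2 fold change of −3.25 ± 0.18 (SE, adjusted p = 5.47e-12), and VEGFB fell by 1.06.

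In the WNT pathway 6 of 37 measured genes rose and 17 fell, with a median of −0.22 (9 and 17 in the GC-corrected fit). The noncanonical ligand WNT5A stood at 7.4, 5.87 and 7.13 CPM in the VCaP-CT libraries and 15.4, 15 and 16.3 CPM in the VCaP-CT-BR libraries and rose by 1.2, while WNT5B fell by 1.59. The transcription factor LEF1 rose by 0.7, from 191 ± 7.39 CPM to 310 ± 2.78 CPM, and APC of the destruction complex by 0.66. The receptor FZD8 fell by 1.36 and the secreted inhibitor SFRP1 fell by 1.13. WNT5A was at 0.631 ± 0.0409 CPM in VCaP-CT-ER, a log2 difference of 4.62 from VCaP-CT-BR (adjusted p = 3.23e-17).

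**Figure D5:**
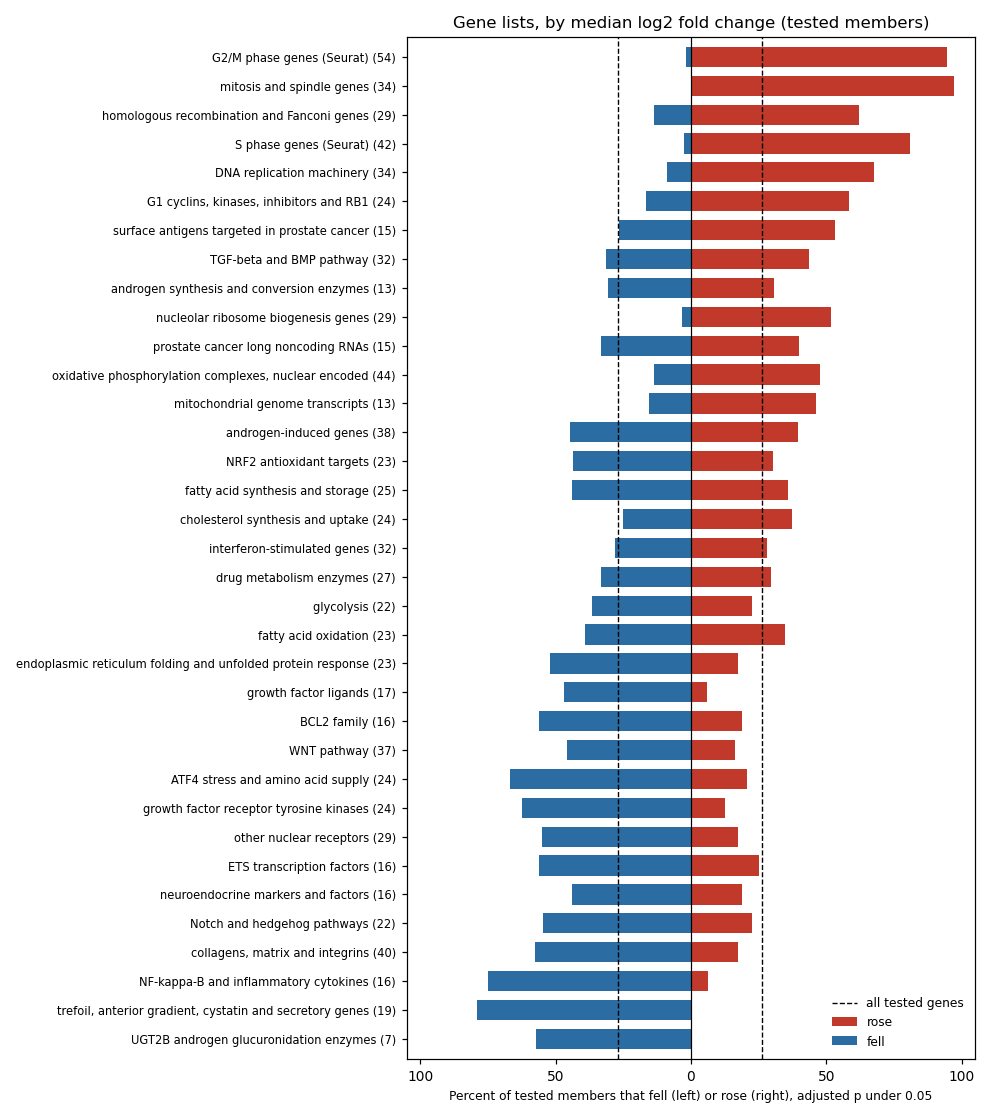
Percent of tested members that fell (left, blue) or rose (right, red) in VCaP-CT-BR against VCaP-CT at an adjusted p under 0.05, for 35 gene lists ordered by their median log2 fold change, with the number of tested members in brackets. Dashed lines mark the percentages over all tested genes, 27% lower and 26.1% higher. Cell cycle lists lie at the top, and UGT2B, secretory and NF-kappa-B genes at the bottom.

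Metabolic lists mostly held changes in both directions, as did all tested genes, of which 26.1% rose and 27% fell. Those shares include weakly expressed genes, which were called less often than strongly expressed ones. Nuclear-encoded oxidative phosphorylation genes rose in 21 of 44 cases and fell in 6, with a median of 0.13 (21 and 9 in the GC-corrected fit). Of the 13 protein-coding transcripts of the mitochondrial genome 6 rose and 2 fell in the main fit, with a median of 0.12, but 2 rose and 5 fell in the GC-corrected fit, so no direction is given for them as a group. MT-ND5 rose by 0.82 and MT-ND6 by 0.93, and both rose in the GC-corrected fit, by 0.69 and 0.66. Of 23 measured fatty acid oxidation genes 8 rose and 9 fell, with a median of −0.09 (10 and 8, with 0.02). AMACR, a racemase used as a tumour marker, stood at 83.2, 79.1 and 76.6 CPM in the VCaP-CT libraries and 208, 211 and 201 CPM in the VCaP-CT-BR libraries and rose by 1.38. The peroxisomal oxidase ACOX2 fell by 2.37, from 24.3 ± 0.871 CPM to 4.7 ± 0.333 CPM. Fatty acid synthesis genes rose in 9 and fell in 11 of 25 cases (9 and 10), with a median of 0.01. Cholesterol synthesis and uptake genes rose in 9 and fell in 6 of 24 (13 and 4 in the GC-corrected fit), with a median of 0.01. Glycolysis genes rose in 5 and fell in 8 of 22 (10 and 8), with a median of −0.07. LDHA, which makes lactate, rose by 0.56 and has many pseudogene copies, while HK2 fell by 0.55.

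Stress programmes differed from list to list. Of 24 measured genes of ATF4 and amino acid supply 5 rose and 16 fell, with a median of −0.28 (5 and 12 in the GC-corrected fit). The stress inhibitor of mTOR DDIT4 fell by 0.91 and NUPR1 fell by 0.88, from 233 ± 8.95 CPM to 127 ± 10.5 CPM. ATF4 itself fell by 0.44 and has pseudogene copies. SLC7A11, the cystine transporter, rose by 1.01 and ATF5 by 0.77. Genes of folding in the endoplasmic reticulum fell in 12 of 23 cases and rose in 4 (11 and 1), with a median of −0.13. Of 23 NRF2 antioxidant targets 7 rose and 10 fell (9 and 7), with a median of 0.01. Both subunits of the enzyme that makes gamma-glutamylcysteine, the first step to glutathione, rose: GCLM stood at 20.7, 19 and 19.3 CPM in the VCaP-CT libraries and 48.3, 44.1 and 48 CPM in the VCaP-CT-BR libraries, with a log2 fold change of 1.25 ± 0.07 (SE, adjusted p = 8.79e-12), and GCLC rose by 0.89. NQO1, a much used NRF2 target, was at 2.51 ± 0.272 CPM and 2.6 ± 0.264 CPM and did not pass the test. The BCL2 family had 3 of 16 higher and 9 lower (6 and 6), with a median of −0.22. The BH3-only gene PMAIP1 rose by 1.03 and BBC3 fell from 6.88 ± 0.657 CPM to 3.57 ± 0.472 CPM.

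Surface proteins that are targets of prostate cancer therapy rose in 8 of 15 measured cases and fell in 4, with a median of 0.28 (7 and 3 in the GC-corrected fit). The shares over all tested genes were 26.1% and 27%. FOLH1, which encodes prostate-specific membrane antigen, stood at 14.4, 12.8 and 13.6 CPM in the VCaP-CT libraries and 46.2, 43.5 and 42.1 CPM in the VCaP-CT-BR libraries, with a log2 fold change of 1.69 ± 0.09 (SE, adjusted p = 1.75e-12). STEAP2 rose by 0.66 and TMEFF2 by 0.64. The tissue factor gene F3 fell from 74.6, 77 and 71.9 CPM in the VCaP-CT libraries to 22.9, 22.8 and 20.9 CPM in the VCaP-CT-BR libraries, with a log2 fold change of −1.75 ± 0.06 (SE, adjusted p = 5.66e-15). TMEFF2 was at 548 ± 5.5 CPM in VCaP-CT-ER, against 12.8 ± 0.835 CPM in VCaP-CT-BR. FOLH1 is known as a gene that androgen represses.

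Neuroendocrine genes had 3 of 16 measured higher, 7 lower and a median of −0.41 (2 and 6 in the GC-corrected fit). PEG10, a retrotransposon-derived gene, stood at 149.8, 149.5 and 156 CPM in the VCaP-CT libraries and 367, 371 and 413 CPM in the VCaP-CT-BR libraries, with a log2 fold change of 1.34 ± 0.07 (SE, adjusted p = 3.45e-12). The neuroendocrine factor INSM1 fell by 0.75, and the vesicle protein SYP was at 6.11 ± 0.681 CPM and 5.94 ± 0.662 CPM and did not pass the test (adjusted p = 0.768). Of 27 drug metabolism enzymes 8 were higher and 9 lower, against 26.1% and 27% of all tested genes. Their median was −0.05 (7 and 5, with 0.04, in the GC-corrected fit). MGST1, a microsomal glutathione transferase, rose by 1.03, and CYP4F8, a fatty acid hydroxylase, fell from 148, 151 and 135 CPM in the VCaP-CT libraries to 29.7, 34.5 and 29.3 CPM in the VCaP-CT-BR libraries, with a log2 fold change of −2.22 ± 0.07 (SE, adjusted p = 4.01e-16). CYP1A1, an aryl hydrocarbon receptor target, rose from 0.211 ± 0.139 CPM to 1.99 ± 0.13 CPM. Of 15 prostate cancer long noncoding RNAs 6 rose and 5 fell, with a median of 0.17 (5 and 6, with 0.08). PCAT14 rose by 0.64, and NEAT1, among the 5 genes with the largest loss in CPM, fell by 0.88, from 2579, 3112 and 4092 CPM in the VCaP-CT libraries to 1903, 1752 and 1669 CPM in the VCaP-CT-BR libraries.

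Positions on the chromosomes were described by medians over neighbouring genes. Over 285 windows with at least 20 tested genes, by gene start on GRCh38, the median log2 fold change ran from −0.38 to 0.65 with an SD of 0.2, and in the GC-corrected fit from −0.51 to 0.27 with an SD of 0.11. The highest window, 170 to 180 Mb of chromosome 4, held 24 genes with a median of 0.65, of which 13 rose and 2 fell, and its median was 0.25 in the GC-corrected fit. It did not stand alone on that chromosome. The windows at 160 to 170 and 180 to 190 Mb both had a median of 0.4. In the GC-corrected fit they had 0.18 and 0.27, the latter the highest of all windows. At 120 to 130 Mb the median was 0.51, whereas at 60 to 70 Mb it was −0.29. The window at 40 to 50 Mb of chromosome 8, singled out after its values were seen, held 38 genes with a median of −0.38, of which 4 rose and 22 fell, and −0.46 in the GC-corrected fit. Its 3 VCaP-CT-BR libraries stood at −0.34, −0.34 and −0.35 relative to the VCaP-CT mean. Its VCaP-CT libraries stood at 0, −0.02 and 0.02, near 0 by construction. Such a separation was not particular to this window. At 40 to 50 Mb of chromosome 21 the median was also −0.38, with VCaP-CT-BR libraries at −0.33, −0.29 and −0.29. The median there was −0.15 in the GC-corrected fit. The DNA copy number was not measured here.

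VCaP-CT-BR and VCaP-CT-ER, grown out from the same VCaP-CT under different antagonists, also differed from each other. In VCaP-CT-BR 5647 genes (28.8%) were higher and 5317 (27.1%) lower than in VCaP-CT-ER. The comparisons share VCaP-CT-BR, so their values are given side by side for named genes. ANTXR2 was 3.05 higher than in VCaP-CT on the log2 scale and −0.04 against VCaP-CT-ER (adjusted p = 0.552), and RHOU 1.45 and −0.04 (adjusted p = 0.503). OR51E2 was at −8.32 and −1.04 (adjusted p = 0.262), with few counts in either antagonist-derived subline. CENPE was at 1.85 and 1.88, CCNB1 at 1.1 and 1.15, and TGFB2 at 2.43 and 4.08, so these genes were higher in VCaP-CT-BR than in either. FOS was at −4.38 and −7.47, NPY at −5.88 and −5.86, and KLK3 at −1.23 and −5.2, lower than in either. TRPM8 was lower than in VCaP-CT, at −1.19, and higher than in VCaP-CT-ER, at 8.2 (adjusted p = 7.08e-23).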

How the data were processed

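Bulk RNA was sequenced on an Illumina HiSeq. Per the submitters' notes and the study's methods, the authors aligned the reads with STAR 2.5.4b to GRCh38 and counted fragments per gene with featureCounts 1.6.2, without regard to strand, so a gene and an overlapping gene on the other strand cannot be told apart. The deposited values are raw counts per gene, 1 table per library, and the sample titles gave groups and replicate numbers. Counts were fitted over all 15 libraries with edgeR 4.0.16 in R 4.3.3 (a minimum count of 10 in filterByExpr, TMM normalization, a term per subline, quasi-likelihood F tests, Benjamini-Hochberg adjustment over 19621 genes, threshold 0.05). CPM values use TMM-adjusted library sizes, and SE is the standard error of the log2 fold change. The fit was tested on simulated counts in which 200 genes changed by at least 2-fold. All 200 were recovered with the right sign, and 10 of 18848 unchanged genes were called. The simulation held no GC gradient and no smaller changes, so it does not bear on these.

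GC share and exon length came from the reference annotation, and the GC-corrected fit used splines of 6 and 3 degrees of freedom per library. Gene positions are those of the counting annotation. Promoters came from RefSeq (GRCh38.p14), matched by symbol for 12258 tested genes. The genes named were, among those with an adjusted p under 0.05, no overlap of libraries and at least 5 CPM in the higher subline, the 12 with the largest rise and fall, the 5 with the largest gain and loss in CPM, and in each list the 3 that rose and fell most, besides the first 3 members as written. No gene of the Y chromosome and no XIST was reported, and some genes and 1 list that the rule would name are not reported here. The contents of the 50 lists, and the comparison itself, were chosen with earlier results of these data known, so list counts are descriptions and no list was tested. Alternatives covered normalization (RLE, upper quartile), tool (DESeq2 1.42.0), filters, libraries fitted, a replicate block, each library left out, a minimum fold of 1.5 and the GC correction, the last added after the data were seen.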

Additional observations from a re-analysis of the deposited data

How the results depend on the processing

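At a minimum fold of 1.5 (glmTreat), 689 genes were higher and 1366 lower in VCaP-CT-BR than in VCaP-CT. With at least 100 counts over the 6 libraries, 383 genes were at least 2-fold higher. Every other alternative kept the counts of calls of both comparisons within 1.5 times the main ones, DESeq2 with 4858 and 5169 and upper quartile scaling, which moved the median of all genes to −0.059, with 4516 and 5855. Leaving out 1 library gave 4426 to 4951 higher and 4499 to 5332 lower genes, with 494 to 674 and 1241 to 1475 by at least 2-fold, and against VCaP-CT-ER 4951 to 5324 higher and 4981 to 5396 lower. The replicate block gave 5082 higher and 5240 lower genes. Deviations of same-numbered libraries correlated at 0.021, 0.473 and −0.184 over 12720 genes, so the numbers were not taken to pair the samples. Of the 149 named genes 138 kept their side of the threshold and direction in every alternative but the minimum fold. In the GC-corrected fit the sign turned for GATA2 (0.04), RELA (0.02), MCM2 (0.16, which then passed the test), SYP (0.19), ERBB3 (0.00) and NQO1 (−0.00), and CCND1 lost its call. SPC24, uncalled in the main fit, gained a call there, and other gains of a call are not listed. MCM3 turned to −0.03 with upper quartile scaling. Leaving out 1 library turned MCM3 to between −0.02 and −0.01 and NQO1 to −0.03, and SYP ran from −0.13 to 0.05 and turned in 2 of these fits. All 3 were uncalled in the main fit, and FOXA1 lost its call in 9 alternatives. The cause was not tested. Genes under 1 CPM rest on few counts, and their fold changes are the least certain.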

Other observations

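Further gene lists are given beside all tested genes, of which 26.1% rose and 27% fell in the main fit. Of 30 measured nodes of the PI3K-AKT and MAPK pathways 13 rose and 8 fell, with a median log2 fold change of 0.09 (13 and 9 in the GC-corrected fit). INPP4B, a lipid phosphatase that androgen induces, stood at 4.02, 3.3 and 4.67 CPM in the VCaP-CT libraries and 8.19, 7.06 and 7.54 CPM in the VCaP-CT-BR libraries and rose by 0.93 on the log2 scale (adjusted p = 3.79e-06). The MAPK inhibitor SPRED2 fell from 20.2, 20.1 and 21 CPM in the VCaP-CT libraries to 9.85, 9.55 and 11.1 CPM in the VCaP-CT-BR libraries, with a log2 fold change of −1.01 ± 0.07 (SE, adjusted p = 3.28e-10). Of 34 measured polycomb, DNA methylation and chromatin remodelling genes 13 rose and 8 fell (17 and 8). Of 22 hypoxia response genes 8 rose and 6 fell (8 and 7), of 11 genes of the MYC and MAX network 3 rose and 6 fell (5 and 5), and of 13 polyamine genes 5 rose and 3 fell (6 and 6).

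Of 7 measured basal epithelial markers 1 rose and 5 fell (1 and 4 in the GC-corrected fit), with a median of −1.07, at low levels, and of 12 luminal markers 2 rose and 7 fell (3 and 7). Of 4 measured mesenchymal markers none rose and 1 fell (1 and 1), of 7 genes of MHC class I presentation 3 rose and 3 fell (2 and 3), of 10 drug efflux transporters 1 rose and 2 fell (2 and 1), and of 8 genes of cholesterol efflux 3 rose and 4 fell (3 and 4).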
